A study of Mus musculus with 15 samples.

Results

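The response of irradiated mouse submandibular glands to extracellular vesicles was measured as 1 difference averaged over both collection days. The comparison set 6 libraries of irradiated glands given vesicles against 6 libraries of irradiated glands without them, which is 12 of the 15 libraries of the series. The libraries were chosen by their labels alone, and no measured value entered the choice. All glands came from wildtype male C57BL/6 mice aged 8 to 10 weeks. IR_iEV_4d and IR_iEV_30d glands (3 libraries each) had received 15 Gy at the gland region and then iEVs into the gland every week starting on day 1, and were collected on day 4 or day 30. IR_4d and IR_30d glands (3 libraries each) had received the same dose without iEVs and were collected on the same days. NT glands (3 libraries) were not treated, their day of collection is not given, and they entered only the shared estimate of the spread and the levels quoted for orientation. The labels use iEV without expanding it, and mesenchymal stem cells are named as a source of vesicles in the series title. No vehicle-injected group and no group with iEVs but no irradiation is labelled, so the vesicles and the repeated injection cannot be told apart. Whether each library came from its own mouse is not stated either, so the p-values reflect how far these libraries varied, and that variation may be technical in part.

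The submandibular gland of male mice has acini, which make watery and mucous saliva, and ducts. A stretch of the duct, the granular convoluted tubule, stores secretory granules that hold epidermal growth factor and a family of kallikrein proteases, and it is larger in males because androgens maintain it. Cells that secrete this much protein depend on chaperones in the endoplasmic reticulum, whose genes are induced by the unfolded protein response when folding demand rises. Ionizing radiation is known to damage the gland and reduce saliva, and stem cell vesicles are studied because they carry proteins and RNA between cells.

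Averaged over both days, few genes passed the test, and nearly all of those were lower in IR_iEV glands than in IR glands. Of 16042 genes tested with edgeR's quasi-likelihood test (adjusted p under 0.05), 52 passed, which is 0.324% of them. Only 5 were higher (0.0312%) and 47 were lower (0.293%), while 1837 genes had an unadjusted p under 0.05 and the median change over all tested genes was 0.00 on the log2 scale. The genes that fell include products of the granular convoluted tubule (5 kallikreins among them), chaperones of the endoplasmic reticulum (Hspa5, Hyou1, Sel1l, Manf and Dnajb11), and Lcn2, Nfkb2, Hsd11b1 and Vegfa. The changes were moderate: their sizes ran from 0.29 to 1.43 on the log2 scale, and 1 gene, Lcn2, reached 1. A model with treatment and day as additive terms on the 12 irradiated libraries, which leaves any difference in the iEV effect between the days in the spread, called 10 genes, all lower, of which 8 are among the 52.

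The average rested mostly on day 30. Of the 52 genes, 49 had the same sign on both days, and 50 differed more on day 30 than on day 4. The 47 lower genes had a median change of -0.32 on day 4 and -0.70 on day 30, with -0.54 for the average. Of the 52, 30 had IR_iEV and IR libraries that did not overlap on either day, in the same direction on both. The 52 were picked by a p-value from these same libraries, so that count is a description and not a separate test. Across all tested genes such separation on both days occurred for 302 genes (1.88%), 116 with IR_iEV higher (0.723%) and 186 with IR_iEV lower (1.16%). Tested within a day, 46 of the 52 passed on day 30 alone and 0 passed on day 4 alone. A direct test of the difference between the days called only 3 of the 52, against 0.125% of all tested genes. On day 4 alone edgeR called 5 genes (0.0312%, with 1093 at an unadjusted p under 0.05). All 5 are interferon-responsive or surface genes that are described further on. On day 30 alone 128 genes passed (0.798%), and 82 of these did not pass in the average. That day 30 count was 9 without IR_30d replicate 3, 12 without IR_30d replicate 2, 26 without IR_iEV_30d replicate 3, 31 without IR_iEV_30d replicate 1 and 69 without IR_30d replicate 1. Over all 16042 genes the day 4 and day 30 differences had a Pearson correlation of -0.04 and a Spearman correlation of 0.05, as a description across genes, which are not independent, and 8708 genes (54.3%) had the same sign on both days.

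**Figure D1:**
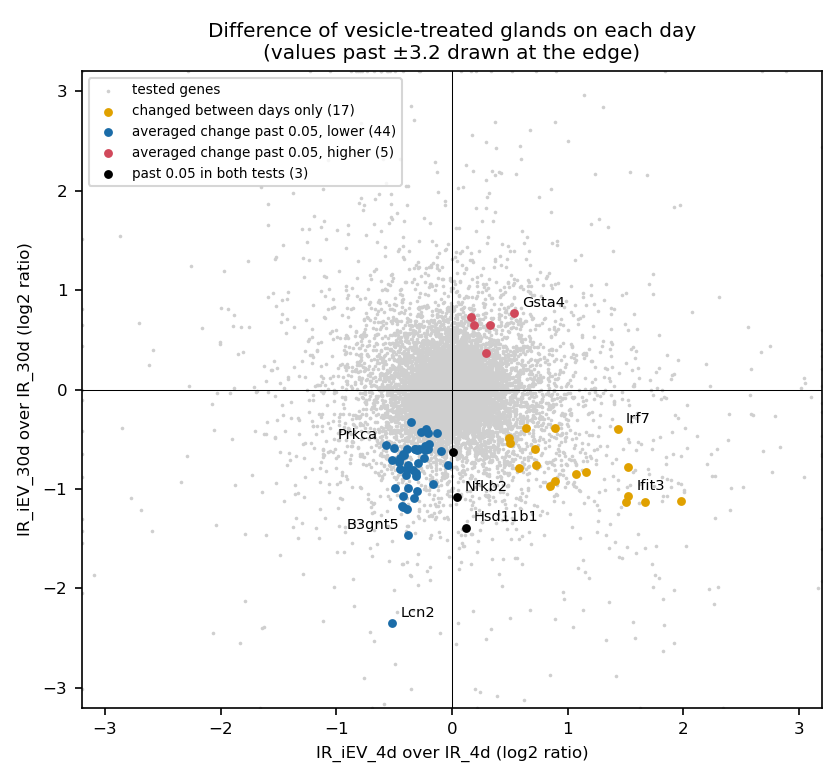
Each point is a gene; the horizontal axis is the log2 ratio of IR_iEV_4d over IR_4d glands and the vertical axis that of IR_iEV_30d over IR_30d glands, with 3 libraries in each group. Lower genes of the averaged comparison lie left of and below 0, mostly further below than left; the 3 in black lie at or just right of 0 on day 4, and the genes whose difference changed between the days lie to the lower right.

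Leaving out a single library moved the number of genes that passed between 5 and 132. It was 5 without IR_4d replicate 3, 7 without IR_4d replicate 1, 7 without IR_30d replicate 3, 9 without IR_iEV_4d replicate 1, 10 without IR_30d replicate 2, 14 without IR_iEV_30d replicate 1, 14 without IR_iEV_30d replicate 3 and 30 without IR_30d replicate 1. It was 97 without IR_iEV_4d replicate 3 and 132 without IR_iEV_30d replicate 2. The genes Galnt18, B3gnt5, Igfals, Nfkb2 and the predicted gene Gm42226 passed in all 12 of these fits, and Klk1b11 passed in 11. Of the 52, 51 kept their sign in all 23 alternative fits and Ptgr1 kept it in the 22 that tested it, and all 52 passed with DESeq2 and with limma-voom.

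Total counts ran from 29082798 to 41367972 in the 12 irradiated libraries, and the 10 most abundant genes held 39.9 to 50.4% of them. The tubule product Egf was at 21382 CPM or more in each of them, but markers of neighbouring tissue differed between libraries of the same group. The sublingual markers (12 measured of 15 listed) had a mean level above 2 log2 CPM (counts scaled to library size, on a log2 scale) in IR_iEV_4d replicates 2 and 3, IR_iEV_30d replicate 2, IR_4d replicates 1 and 2 and NT replicate 1, at 4.11 to 6.01. In the other 9 libraries the level was 0.42 to 1.94, and the defining gene Nkx2-3 was at 0 CPM in them. The adipose markers (16 tested of 16) were highest in IR_iEV_4d replicate 2 (4.85), IR_4d replicate 3 (3.57) and IR_iEV_4d replicate 1 (3.37). Muscle myosin Myh4 stood at 45.8 CPM in IR_iEV_4d replicate 2 and at 0 or 0.29 CPM in every other library. With the sublingual and adipose levels as covariates 46 of the 52 genes still passed, and the changes of all 52 were 1.02 times the main ones in the median. Without the 6 libraries above this level, the sublingual-rich libraries, 33 of the 52 passed and the median ratio was 1.24, with 133 genes called in all. That fit leaves 1 IR_iEV_4d library (replicate 1) against 1 IR_4d library (replicate 3) on day 4, and 2 IR_iEV_30d libraries against 3 IR_30d libraries. Both of these day 4 libraries are high in adipose markers. The spread of the lone day 4 libraries is taken from the other groups, so a call kept or lost there says little about day 4.

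**Figure D2:**
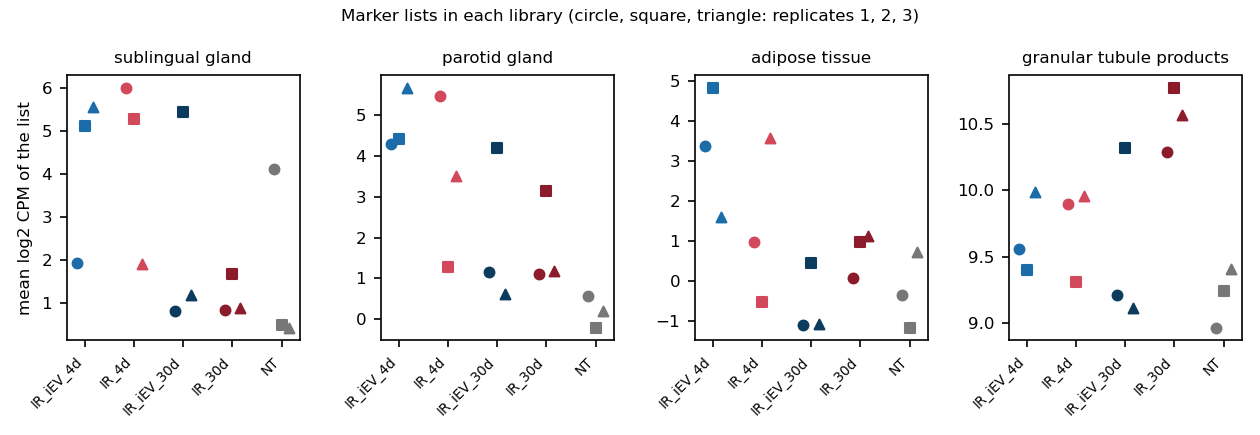
Mean log2 CPM of the markers of sublingual gland, parotid gland, adipose tissue and granular convoluted tubule in each of the 15 libraries, by group, with 1 symbol per replicate number. Sublingual levels are high in 6 libraries spread over 4 groups; the tubule level of IR_iEV_30d replicate 2 (10.32) lies above the lowest IR_30d library (10.29), and the other IR_iEV_30d libraries (9.21 and 9.12) lie below all 3 IR_30d libraries.

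Among secretory products of the granular convoluted tubule the genes that passed were all lower in IR_iEV glands. Of 24 tested members of this list (27 listed), 6 fell, among them 5 kallikreins (Klk1b11, Klk1b22, Klk1b21, Klk1b9 and Klk1b3), and 0 rose, against 0.293% of all genes that fell. The list's median change was -0.61, with -0.28 on day 4 and -1.03 on day 30, against 0.00 over all tested genes. In all 19 members lay below 0 and 5 above, and 18 had an unadjusted p under 0.05. In whole glands a smaller share of tubule cells and less of these transcripts per cell cannot be told apart. No member passed in edgeR without IR_4d replicate 3. Only 1 passed without IR_iEV_4d replicate 1, IR_4d replicate 1, IR_iEV_30d replicate 1 or 3, or IR_30d replicate 2 or 3, each left out alone. With another single library left out 3 to 14 passed, the most without IR_iEV_30d replicate 2. The additive model called 1 member. Without the 6 sublingual-rich libraries, a fit with 1 library against 1 on day 4, the list's median was -0.93.

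The kallikreins of the Klk1b group are serine proteases that process growth factors and other secreted proteins in the gland. Klk1b11 had the lowest adjusted p of the list. It had 4294, 4331 and 5218 CPM in IR_iEV_4d glands, against 6279, 5534 and 6199.9 CPM in IR_4d glands. It had 6387, 7233 and 6140.0 CPM in IR_iEV_30d glands, against 10172, 11977 and 11354 CPM in IR_30d glands. The groups were separate on both days, with the averaged change at -0.57 ± 0.09 (edgeR, adjusted p = 0.0105) and within-day changes of -0.38 and -0.76. Klk1b22 averaged 5913 ± 1162 CPM in IR_iEV_30d glands and 11765 ± 882 CPM in IR_30d glands (SD, n = 3 each), and its averaged change was -0.68 ± 0.12 (edgeR, adjusted p = 0.0216). Klk1b21, Klk1b9 and Klk1b3 fell by 0.80, 0.79 and 0.71 on the log2 scale (edgeR, adjusted p = 0.0216, 0.0447 and 0.0452). Klk1b9 and Klk1b3 no longer passed with the sublingual and adipose covariates (adjusted p = 0.064 and 0.0811).

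The largest estimates of the list belonged to genes that did not pass. Klk1b27 had an averaged change of -1.06 ± 0.22 (edgeR, adjusted p = 0.0799) and Klk1b8 one of -1.03 ± 0.24 (adjusted p = 0.114). Egf, the best known product of the tubule, had 22644, 21382 and 36515 CPM in IR_iEV_4d glands, against 36721, 29644 and 38419.9 CPM in IR_4d glands. On day 30 it had 36310.3, 49543 and 34282 CPM in IR_iEV_30d glands, against 70768, 70836 and 71940.2 CPM in IR_30d glands. The day 4 groups overlapped and the day 30 groups did not, and the average of -0.60 ± 0.15 did not pass (edgeR, adjusted p = 0.115). Crisp3, a secreted cysteine-rich protein, was just short of the threshold at -0.77 ± 0.16 (edgeR, adjusted p = 0.0552). Klk1, a kallikrein also made outside the tubule, lay above 0 at 0.64 ± 0.18 (edgeR, adjusted p = 0.171). Of 12 tested androgen-responsive gland genes 0 passed in edgeR (2 at an unadjusted p under 0.05), with a median of 0.15, which was -0.01 both with the tissue covariates and without the sublingual-rich libraries.

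The kallikrein genes are near-copies of each other, which limits how far their counts are separate measurements. In GENCODE M21 transcripts of 14 kallikrein genes, 10.4 to 29.1% of the 50-base windows of the 5 genes that fell are shared letter for letter with another kallikrein, and how the authors treated reads that match several genes is not stated. Their promoters are alike as well. Among the 5 genes the longest shared run upstream of the start site, 65 bases, was between Klk1b9 and Klk1b22, and the other pairs shared runs of 18 to 33 bases. These stretches are shown because this pair had the longest run, while all 5 genes fell. Capitals mark the shared run, and the sequences are from RefSeq (build GRCm38.p6, which precedes the authors' GRCm39).
Klk1b9, chr7:43975961-43976060, plus strand: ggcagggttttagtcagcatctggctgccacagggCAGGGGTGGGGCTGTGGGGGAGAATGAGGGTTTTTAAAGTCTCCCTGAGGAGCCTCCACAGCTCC
Klk1b22, chr7:44112573-44112672, plus strand: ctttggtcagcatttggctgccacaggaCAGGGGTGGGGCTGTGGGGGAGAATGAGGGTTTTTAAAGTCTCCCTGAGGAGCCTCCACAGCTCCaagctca
The run begins 65 bases before the start site of Klk1b9 and 72 bases before that of Klk1b22.

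A few genes of protein folding in the endoplasmic reticulum fell by small amounts. Of 42 tested members of the list of the unfolded protein response and secretion, 5 fell (Sel1l, Hyou1, Hspa5, Manf and Dnajb11) and 0 rose, against 0.293% of all genes that fell and 0.0312% that rose. The list's median change was -0.18, with -0.14 on day 4 and -0.21 on day 30, and 39 of 42 members lay below 0, 34 of them on both days. An unadjusted p under 0.05 was reached by 22 members. The 3 members above 0 were Xbp1, P4hb and Derl2, at 0.16, 0.02 and 0.01. P4hb and Derl2 lay on the other side of 0 in 1 and 8 alternative fits. In edgeR no member passed without IR_iEV_4d replicate 1, without IR_4d replicate 1 or without IR_4d replicate 3. The same held without IR_iEV_30d replicate 1 or 3 and without IR_30d replicate 2 or 3, each left out alone. With another single library left out 2 to 6 members passed. The additive model called 1 member and DESeq2 called 13. Without the sublingual-rich libraries the list's median was -0.19.

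Hspa5 encodes BiP, the main chaperone of this compartment and the repressor of its stress sensors. It had 617, 608 and 687 CPM in IR_iEV_4d glands, against 722, 792 and 744 CPM in IR_4d glands. It had 518, 555 and 442 CPM in IR_iEV_30d glands, against 707, 967 and 777 CPM in IR_30d glands. The groups did not overlap on either day, and the averaged change was -0.47 ± 0.09 (edgeR, adjusted p = 0.0241). NT glands had 645, 606 and 519 CPM, below the IR_4d and IR_30d libraries. Without the sublingual-rich libraries its adjusted p was 0.0969.

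Hyou1, an Hsp70-like chaperone and nucleotide exchange partner of BiP, was separate on both days too. It had 273, 317 and 308 CPM in IR_iEV_4d glands, against 359.9, 378 and 386 CPM in IR_4d glands. It had 252, 249 and 222 CPM in IR_iEV_30d glands, against 344, 419.8 and 333 CPM in IR_30d glands. Its change was -0.46 ± 0.08 (edgeR, adjusted p = 0.0224), with -0.32 on day 4 and -0.60 on day 30. Sel1l, the adaptor of the ubiquitin ligase that clears misfolded proteins, fell by 0.38 on the log2 scale (SE 0.07, adjusted p = 0.0216). Manf, a secreted stress-induced factor, and Dnajb11, a BiP co-chaperone, changed by -0.32 ± 0.06 and -0.31 ± 0.06 (edgeR, adjusted p = 0.0266 and 0.0311). Both had separate groups on both days, and neither passed without the sublingual-rich libraries (adjusted p = 0.402 and 0.184). Hsp90b1, which encodes the chaperone GRP94, had one of the lowest estimates of the list but scattered more, at -0.49 ± 0.15 (edgeR, adjusted p = 0.22). The disulfide isomerase gene Pdia6 had -0.32 ± 0.08 (adjusted p = 0.0918). Xbp1, the transcription factor of this response, had 0.16 ± 0.08 (adjusted p = 0.456); counts per gene do not show its splicing.

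Many promoters of this response carry the endoplasmic reticulum stress element, searched here on both strands as CCAAT, 9 bases of any kind, and CCACG. It occurred in 39 of 32851 RefSeq promoter windows (0.119%), in 9 of the 35 list members with a window, and in 1 of the 40 genes with a window that passed in the averaged comparison, which was Hspa5. Stretches are printed for Hspa5 and for Pdia6 and Hsp90b1, 2 members that hold the motif and did not pass, with the motif in capitals (RefSeq, build GRCm38.p6).
Hspa5, chr2:34771985-34772084, plus strand: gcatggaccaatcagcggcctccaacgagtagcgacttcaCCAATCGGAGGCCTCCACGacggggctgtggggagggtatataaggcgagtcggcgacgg
Pdia6, chr12:17266451-17266550, plus strand: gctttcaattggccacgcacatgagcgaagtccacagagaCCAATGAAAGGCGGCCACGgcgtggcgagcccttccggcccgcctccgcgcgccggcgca
Hsp90b1, chr10:86705595-86705694, minus strand: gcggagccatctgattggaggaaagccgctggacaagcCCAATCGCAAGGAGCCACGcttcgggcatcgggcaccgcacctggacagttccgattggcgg
The motif begins 65, 98 and 212 bases before the annotated start site in that order. A match describes the letters only.

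Among genes of inflammation and of the acute phase a few fell, Lcn2 by the largest change of the 52. Lcn2 encodes lipocalin 2, an iron-siderophore binding protein that epithelia secrete in inflammation. It had 14.2, 12.6 and 20.1 CPM in IR_iEV_4d glands, against 22, 15.8 and 29.4 CPM in IR_4d glands. It had 23.9, 37.4 and 18.4 CPM in IR_iEV_30d glands, against 96.5, 164 and 145 CPM in IR_30d glands. The 3 IR_30d libraries stood far above all other libraries, NT glands had 26.5, 23.8 and 23.3 CPM, and the day 4 groups overlapped. The averaged change was -1.43 ± 0.22 (edgeR, adjusted p = 0.0224), made of -0.52 ± 0.31 on day 4 and -2.35 ± 0.31 on day 30. The difference between the days, -1.83 ± 0.43, did not pass (edgeR, adjusted p = 0.212). In the averaged comparison Lcn2 passed in 4 of 12 fits with a library left out, and its adjusted p was 0.0818 without IR_4d replicate 3 (edgeR).

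Nfkb2 encodes p100, the precursor subunit of the noncanonical NF-kB pathway. It had 36.6, 42.3 and 41.4 CPM in IR_iEV_4d glands, against 40.1, 38 and 38.8 CPM in IR_4d glands. It had 40.9, 39.5 and 39.8 CPM in IR_iEV_30d glands, against 84.9, 90.2 and 78.9 CPM in IR_30d glands. Libraries of day 4 overlapped, and all 3 IR_30d libraries stood well above every other library. The average of -0.52 ± 0.07 (edgeR, adjusted p = 0.00856) therefore stands for a day 30 change of -1.08 ± 0.10 and a day 4 change of 0.04 ± 0.10, and the days differed by -1.12 ± 0.14 (edgeR, adjusted p = 0.00149). Among 26 tested NF-kB subunits and feedback genes Nfkb2 was the only one that passed, against 0.324% of all tested genes, and the list's median was 0.00.

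Hsd11b1 and Slc39a14 showed the same pattern. Hsd11b1 encodes the enzyme that regenerates active glucocorticoid within tissues. It had 53.1, 63.9 and 70.4 CPM in IR_iEV_4d glands, against 57, 50.4 and 65.4 CPM in IR_4d glands. It had 46.2, 46.6 and 38.4 CPM in IR_iEV_30d glands, against 117, 125 and 102 CPM in IR_30d glands. The day 4 groups overlapped, the day 30 groups were far apart, and the averaged change was -0.64 ± 0.10 (edgeR, adjusted p = 0.0216), with a difference between days of -1.51 ± 0.20 (adjusted p = 0.00401). Slc39a14, a zinc, manganese and iron importer induced in the acute phase, averaged -0.31 ± 0.06 (edgeR, adjusted p = 0.0255) from 0.01 on day 4 and -0.63 on day 30, and its days differed as well (adjusted p = 0.0312). Of 19 tested acute phase and metal handling genes 2 fell (Lcn2 and Slc39a14), against 0.293% of all tested genes. The list's median was 0.04 (-0.03 with the tissue covariates and -0.20 without the sublingual-rich libraries). Of 20 tested glucocorticoid-responsive genes 2 fell (Hsd11b1 and Lcn2), against the same 0.293%, and Lcn2 is counted in both lists. The glucocorticoid list had a median of 0.04 (-0.17 without the sublingual-rich libraries). The metallothionein gene Mt1 lay above 0 at 0.45 ± 0.11 and did not pass (edgeR, adjusted p = 0.0935).

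**Figure D3:**
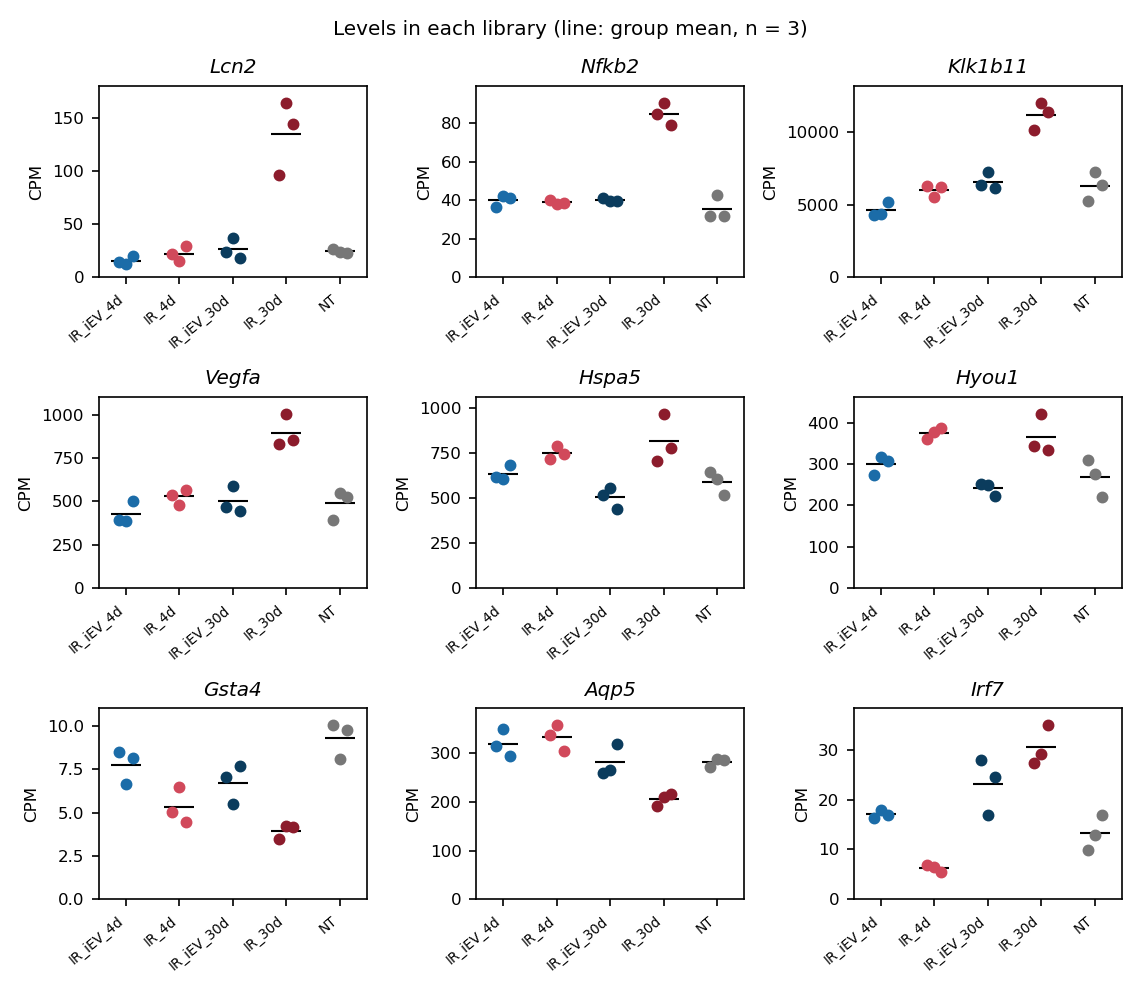
Levels in CPM of 9 genes in each library; points are libraries, lines are means of the 3 libraries of a group, and each axis starts at 0. For Lcn2 and Nfkb2 the IR_30d libraries stand apart from all others. For Klk1b11, Hspa5, Hyou1 and Gsta4 the IR_iEV libraries are separate from the IR libraries on both days. The groups overlap on day 4 but not on day 30 for Aqp5, and on day 30 but not on day 4 for Irf7. Irf7 passed the direct test between days and Aqp5 did not.

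The growth factor genes Vegfa and Fgf1 and the carrier gene Igfals fell, and they were put together here after their values were seen. Of 13 tested ErbB receptors and ligands 0 passed in edgeR (1 at an unadjusted p under 0.05), with a median of -0.03. Vegfa, the main angiogenic growth factor, had 392, 387 and 501 CPM in IR_iEV_4d glands, against 539, 482 and 567 CPM in IR_4d glands. It had 471, 590.2 and 445 CPM in IR_iEV_30d glands, against 833, 1001 and 853 CPM in IR_30d glands. One IR_iEV_4d library reached into the IR_4d range and the day 30 groups were separate, and the averaged change was -0.57 ± 0.10 (edgeR, adjusted p = 0.0216). Vegfa was the only one of 30 tested genes of the endothelial list to pass, against 0.324% of all tested genes, and the list's median was 0.14. Fgf1, a fibroblast growth factor, changed by -0.46 ± 0.09 (edgeR, adjusted p = 0.0255) with separate groups on both days.

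Igfals, which encodes the acid-labile subunit that holds insulin-like growth factors in a ternary complex, had the lowest adjusted p of all genes. It had 19.5, 18.9 and 17.4 CPM in IR_iEV_4d glands, against 23.4, 24.5 and 20.8 CPM in IR_4d glands. On day 30 it averaged 21.7 ± 2.50 CPM in IR_iEV_30d glands and 44.1 ± 3.80 CPM in IR_30d glands (SD, n = 3 each). Both days were separate, and the change was -0.66 ± 0.08 (edgeR, adjusted p = 0.00589). Without the sublingual-rich libraries its adjusted p was 0.0564.

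Several enzymes that build or trim glycans fell. Galnt18, of the polypeptide GalNAc-transferase family whose members start mucin-type glycans, was the only gene of the 52 that passed in all 23 alternative fits. It had 19.2, 19.9 and 17.3 CPM in IR_iEV_4d glands, against 24.6, 25.1 and 25.8 CPM in IR_4d glands. It had 22.5, 29 and 26.3 CPM in IR_iEV_30d glands, against 35.2, 43 and 43.5 CPM in IR_30d glands. The groups were separate on both days, with changes of -0.42 and -0.65 and an average of -0.53 ± 0.08 (edgeR, adjusted p = 0.00856). B3gnt5, which starts lacto-series glycolipids, was low in all libraries and averaged 4.21 ± 0.606 CPM in IR_iEV_30d glands and 11.6 ± 1.20 CPM in IR_30d glands (SD, n = 3 each). Its averaged change was -0.92 ± 0.14 (edgeR, adjusted p = 0.01). Man1a, a Golgi mannosidase that trims N-glycans, changed by -0.35 on day 4 and -0.33 on day 30, an average of -0.34 ± 0.06 (adjusted p = 0.0216). Slc35b4, a nucleotide sugar transporter, changed by -0.45 ± 0.08 (adjusted p = 0.0216). Glycan genes were not among the lists examined, so these 4 are named after their values were seen and carry no count.

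Other genes that fell belong to signalling, protein turnover and transport. Prkca, protein kinase C alpha, and Man1a were the only genes of the 52 with a change at least as large on day 4. Prkca had 31.6, 24.4 and 30.6 CPM in IR_iEV_4d glands, against 45.5, 37.5 and 45.3 CPM in IR_4d glands. It had 42, 45.2 and 34 CPM in IR_iEV_30d glands, against 61.2, 59.3 and 57.7 CPM in IR_30d glands. Both days were separate, and the change was -0.56 ± 0.09 (edgeR, adjusted p = 0.0216). Noct, which encodes the clock-controlled phosphatase nocturnin, changed by -0.62 ± 0.09 (adjusted p = 0.012), also with separate groups on both days. Fbxw7 and Fbxl7 encode substrate receptors of ubiquitin ligases, and both are among the larger changes at -0.75 ± 0.13 and -0.74 ± 0.14 (edgeR, adjusted p = 0.0224 and 0.0266). Fbxw7 overlapped between the groups on day 4, and Fbxl7 did not pass without the sublingual-rich libraries (adjusted p = 0.274).

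Gdpd1, a glycerophosphodiester phosphodiesterase, changed by -0.63 ± 0.11 (edgeR, adjusted p = 0.0216). Kcnj16, a potassium channel subunit of epithelia, was the only member of 26 tested ductal transport genes to pass, against 0.324% of all tested genes. It changed by -0.57 ± 0.11 (edgeR, adjusted p = 0.0447), and it did not pass with the tissue covariates (adjusted p = 0.088). Fxyd2, a regulator of the sodium pump in the same list, had 0.73 ± 0.17 and did not pass (adjusted p = 0.115), and the list's median was 0.02 (0.05 with the tissue covariates and 0.07 without the sublingual-rich libraries). Tlr1, a receptor for bacterial lipoproteins, and Ctsc, the protease that activates granule enzymes of immune cells, changed by -0.59 ± 0.11 and -0.40 ± 0.08 (edgeR, adjusted p = 0.0279 and 0.0266). Lower genes not yet named include Atp13a5, Trim16, Amot, Ahcyl2, Ermp1, Sh3kbp1, Bbln, Tex10, Ptgr1, Wdr72, Esrrg, Mcam and Mctp2, with changes between -0.59 ± 0.11 (Ptgr1) and -0.29 ± 0.05 (Bbln).

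**Figure D4:**
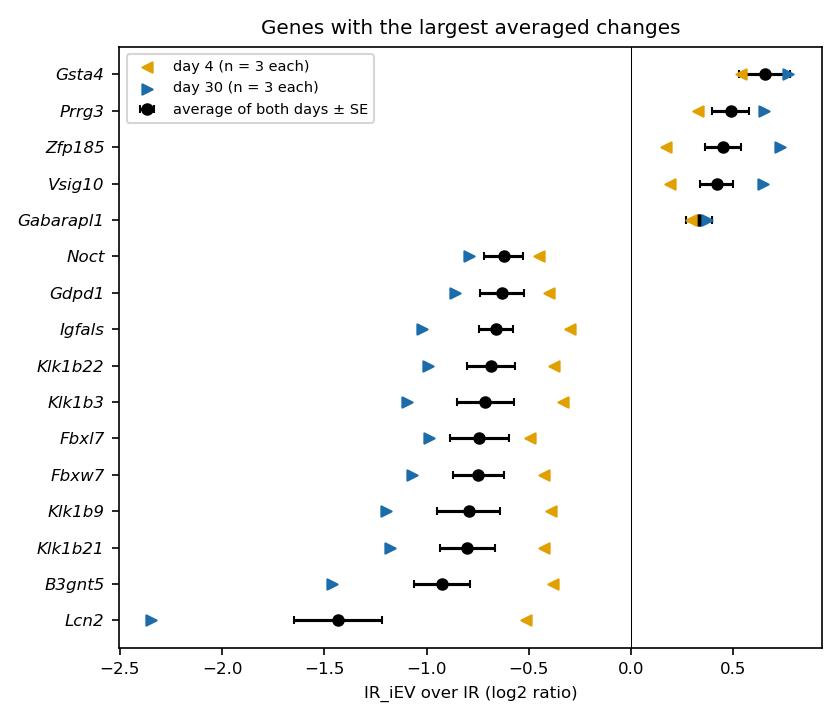
Averaged log2 ratio of IR_iEV over IR glands for the 5 genes that rose and 11 of the 12 largest falls with the same sign on both days; black points with bars are the average ± SE from the fit of all libraries, left-pointing triangles are day 4 and right-pointing triangles day 30. For every gene drawn the day 30 value lies further from 0 than the day 4 value.

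The 5 genes that rose were low to moderate in level, and the largest change was 0.65 (Gsta4). Gsta4 encodes a glutathione transferase that clears the lipid peroxidation product hydroxynonenal. It had 8.48, 6.62 and 8.13 CPM in IR_iEV_4d glands, against 5.03, 6.46 and 4.47 CPM in IR_4d glands. It had 7.04, 5.48 and 7.68 CPM in IR_iEV_30d glands, against 3.47, 4.22 and 4.18 CPM in IR_30d glands. The groups were separate on both days, by little on day 4, and the change was 0.65 ± 0.12 (edgeR, adjusted p = 0.0266). NT glands had 10.0, 8.08 and 9.78 CPM, above all 6 IR libraries and overlapping the IR_iEV_4d libraries. Prrg3, a transmembrane protein with a Gla domain, had 0.49 ± 0.09 (adjusted p = 0.0255), and NT glands had 14.1, 15.2 and 12.7 CPM, above all 12 irradiated libraries.

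Gabarapl1, an autophagy protein of the ATG8 family, had 109, 93.8 and 91.1 CPM in IR_iEV_4d glands, against 75.8, 81.2 and 83 CPM in IR_4d glands. It had 127, 115 and 139 CPM in IR_iEV_30d glands, against 95.5, 95.7 and 104 CPM in IR_30d glands. Both days were separate, and the change was 0.33 ± 0.06 (edgeR, adjusted p = 0.0266). Zfp185, an actin-associated LIM protein, and Vsig10, an immunoglobulin-domain membrane protein, changed by 0.45 ± 0.09 and 0.42 ± 0.08 (adjusted p = 0.0266 and 0.0312). Prrg3, Zfp185 and Vsig10 did not pass without the sublingual-rich libraries (adjusted p = 0.412, 0.2 and 0.0625), while Gsta4 and Gabarapl1 did; with 1 library against 1 on day 4, that fit does not separate steady from unsteady changes. For all 5 the NT mean was above the IR_4d and the IR_30d mean. Those means share the IR libraries with the comparison, so this is not a test, and the share over all tested genes was not counted.

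Gsta4 belongs to a list of 36 tested genes of NRF2 signalling and glutathione, the main antioxidant system of cells. It was the only member that passed, against 0.324% of all tested genes. In this list 28 members lay above 0 and 8 below, and 12 had an unadjusted p under 0.05. The median was 0.11, with 0.24 on day 4 and 0.08 on day 30. Mgst1, a microsomal glutathione transferase, had 21.5, 30.4 and 15.6 CPM in IR_iEV_4d glands, against 11.6, 10.8 and 13.9 CPM in IR_4d glands. It had 13.7, 17.5 and 13.9 CPM in IR_iEV_30d glands, against 9.42, 12.8 and 11.9 CPM in IR_30d glands. The groups were separate on both days, yet the change of 0.65 ± 0.14 missed the threshold (edgeR, adjusted p = 0.0552). Its level in IR_iEV_4d glands was highest in replicate 2, the library highest in adipose and muscle markers, and the part of that tissue in the result was not tested. Gpx4, which reduces lipid hydroperoxides, had 0.28 ± 0.06 (adjusted p = 0.0724), and Gstm1 had 0.71 ± 0.17 (adjusted p = 0.11).

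No ribosomal protein gene and no nuclear gene of oxidative phosphorylation passed, but most had small averaged values above 0. All 78 tested cytosolic ribosomal protein genes had an averaged change above 0, 62 of them on both days, with a median of 0.14 (0.05 on day 4 and 0.22 on day 30), and 41 had an unadjusted p under 0.05. Rpl13a, as an example, had 0.22 ± 0.06 (edgeR, adjusted p = 0.145). The count of 78 above 0 was the same with DESeq2 size factors, with upper quartile scaling and in the fit that left out sublingual-rich libraries, where the median was 0.21. These genes vary together between libraries, so the count is not 78 separate results. Of 46 tested nuclear genes of oxidative phosphorylation 42 lay above 0, with a median of 0.10 and 0 passing at the threshold (12 at an unadjusted p under 0.05). DESeq2 and limma-voom calls were not counted for lists without an edgeR call.

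Acinar genes did not pass in the average. Of 24 tested acinar secretory and identity genes 22 lay above 0, 0 passed in edgeR, and 3 had an unadjusted p under 0.05. The list's median was 0.16 (0.17 with the tissue covariates and 0.27 without the sublingual-rich libraries). The mean level of these genes moved with the sublingual markers in IR_iEV_30d replicate 2, where it was 7.0 log2 CPM. It was 6.58 and 6.6 in the other IR_iEV_30d libraries and 6.5 to 6.65 in IR_30d libraries. The part of sublingual tissue by itself was not tested. Aqp5, the water channel of acinar cells, had 316, 349.6 and 295 CPM in IR_iEV_4d glands, against 337, 358 and 305 CPM in IR_4d glands. It had 259, 267 and 319 CPM in IR_iEV_30d glands, against 192, 210.0 and 216 CPM in IR_30d glands. The day 4 groups overlapped and the day 30 groups did not, and the average of 0.20 ± 0.07 did not pass (edgeR, adjusted p = 0.293). Of 25 tested genes of fluid secretion 0 passed, 7 had an unadjusted p under 0.05, and the median was 0.05 (0.10 with the tissue covariates and 0.12 without the sublingual-rich libraries).

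Genes of the radiation response were not changed past the threshold by the average, apart from Fbxw7. Of 40 tested p53 targets 1 fell, against 0.293% of all tested genes, and the median was -0.04. Cdkn1a, the p53-induced inhibitor of the cell cycle, had 74.3, 86 and 70.9 CPM in IR_iEV_4d glands, against 44.1, 64.1 and 60.3 CPM in IR_4d glands. It had 35.4, 34 and 30.5 CPM in IR_iEV_30d glands, against 24.9, 45.8 and 31 CPM in IR_30d glands, and 2.92, 1.76 and 3.03 CPM in NT glands. All 12 irradiated libraries were many times above NT, and the averaged change was 0.22 ± 0.15 (edgeR, adjusted p = 0.61). The aldehyde dehydrogenase gene Aldh3a1 was near 1 CPM in most libraries and had 0.60 ± 0.33 (adjusted p = 0.508). The Hedgehog target Gli1, which stayed under 1 CPM, had -0.11 ± 0.38 (adjusted p = 0.941), too few counts to show a moderate change, and it was above 0 in 2 fits with a library left out. Of 34 tested genes of fatty acid and cholesterol synthesis 0 passed, with a median of -0.25, and the sterol enzyme gene Sc5d came nearest at -0.46 ± 0.11 (edgeR, adjusted p = 0.0926). Within the irradiated groups that list was highest in IR_4d replicate 3 (5.33 log2 CPM), which was also among the libraries highest in adipose markers. With the sublingual and adipose covariates the list's median was -0.30, and the part of adipose tissue by itself was not tested.

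**Figure D5:**
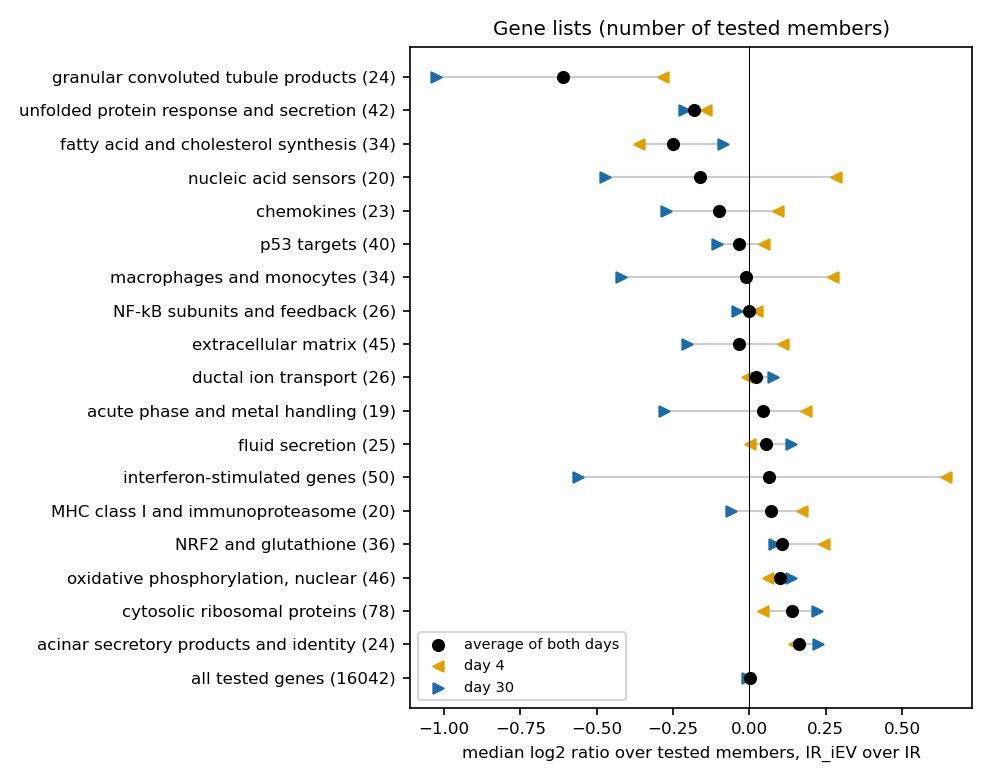
Median log2 ratio of IR_iEV over IR glands over the tested members of 18 gene lists and of all tested genes; black points are the average of both days, left-pointing triangles day 4 and right-pointing triangles day 30, and the number of tested members is in parentheses. Tubule products and folding genes lie below 0 at all 3 points, ribosomal protein genes above, and interferon-stimulated genes average 0.07 from 0.64 on day 4 and -0.56 on day 30.

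Interferon-stimulated genes had medians of opposite sign on the days. Of 50 tested interferon-stimulated genes 0 passed in the averaged comparison in edgeR (9 at an unadjusted p under 0.05), and the median of 0.07 was made of 0.64 on day 4 and -0.56 on day 30. Without the sublingual-rich libraries it was 0.20. A direct test of the difference between the days called 20 of all 16042 genes (0.125%; 1452 at an unadjusted p under 0.05), all 20 with a lower value on day 30 than on day 4. That count was 9 without IR_30d replicate 2 and 12 without IR_30d replicate 3. Of the 50 interferon-stimulated genes 9 were among them, as were 3 of 19 complement genes and 2 of 34 macrophage genes, with C1qa and C1qb in both lists. Irf7, a transcription factor that amplifies type I interferon, had 16.3, 17.9 and 16.9 CPM in IR_iEV_4d glands, against 6.92, 6.49 and 5.49 CPM in IR_4d glands. It had 27.8, 16.9 and 24.4 CPM in IR_iEV_30d glands, against 27.4, 29.2 and 34.9 CPM in IR_30d glands. All IR_iEV_4d libraries were above all IR_4d libraries, and on day 30 the groups overlapped. The averaged change of 0.52 ± 0.13 did not pass (edgeR, adjusted p = 0.129), whereas the days differed by -1.83 ± 0.27 (adjusted p = 0.00893).

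Ifit3, an interferon-induced antiviral protein, was separate on both days in opposite directions. It had 7.86, 5.99 and 7.06 CPM in IR_iEV_4d glands, against 2.57, 2.51 and 2.17 CPM in IR_4d glands. It had 7.53, 7.02 and 4.93 CPM in IR_iEV_30d glands, against 13, 12.2 and 15.6 CPM in IR_30d glands. Its averaged change was 0.22 ± 0.14 (edgeR, adjusted p = 0.568), and the days differed by -2.60 ± 0.28 (adjusted p = 0.000787). The 5 genes that passed on day 4 alone were Irf7, Ifit3, Rtp4, Bst2 and Sdc3, with day 4 changes of 1.43, 1.52, 1.52, 0.89 and 0.72 (edgeR, adjusted p between 0.0104 and 0.044). None of the 5 passed in the average. The day 4 count was 0 without IR_iEV_4d replicate 1, without IR_4d replicate 1 or without IR_4d replicate 3, and 1 without IR_iEV_4d replicate 2 or IR_4d replicate 2, and with the tissue covariates 0 genes passed on day 4 in edgeR (728 at an unadjusted p under 0.05). Macrophage markers (35 measured, 34 of them tested) had a mean level of 2.51, 2.73 and 2.59 log2 CPM in IR_iEV_4d glands, against 2.34, 2.19 and 2.26 log2 CPM in IR_4d glands. On day 30 they had 2.99, 2.98 and 2.53 log2 CPM in IR_iEV_30d glands, against 3.03, 3.28 and 3.25 log2 CPM in IR_30d glands. They were thus higher in IR_iEV glands on day 4 and lower on day 30, in every library, and their part in the interferon values was not tested.

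The NT levels of the genes that fell lay below those of irradiated glands without iEVs in most cases. For all 47 the NT mean was below the IR_30d mean, and for 37 it was also below the IR_4d mean. These levels share the IR libraries with the comparison itself, and genes lower in IR_iEV glands were picked partly for high IR values. The share of all tested genes with such NT levels was not counted. The levels are thus given side by side and not as a test. NT glands also may differ in age at collection. Of the 52 genes 19 belong to a list examined here and 33 to none, 4 of them predicted genes.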

How the data were processed

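Whole-gland RNA was extracted with TRIzol and made into libraries with a NEXTFLEX Rapid Directional kit, which keeps the strand, per the labels' protocols. The authors deposited 1 table with whole-number counts for each gene symbol and library; per the submitters' processing notes the tools were TopHat, HTSeq and DESeq2 with build GRCm39, without versions. The strand setting, annotation and treatment of reads matching several genes are not given in the sources used here. The table held 21013 symbols, 15 with no count.

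Counts were fitted with edgeR 4.0.16 (R 4.3.3): TMM scaling, filterByExpr (minimum count 10, minimum total 15), robust quasi-likelihood F test, 5 group means over all 15 libraries, 10 residual degrees of freedom. The averaged contrast weighs each within-day difference by 0.5. P-values were adjusted by Benjamini-Hochberg over all 16042 tested genes (threshold 0.05). Each SE was derived from the log2 ratio and its F statistic. CPM use TMM-effective library sizes. List levels are means of log2 CPM with prior count 2 over all measured members, tested or not. Alternatives used DESeq2 1.42.0, limma 3.58.1 and other scalings, filters, libraries and terms. The fit was tested on simulated data. Precision is limited by 3 libraries per group.

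The comparison, the 47 gene lists and the naming rule were chosen with earlier results of these data known. The rule took up to 12 rises and 12 falls with the largest averaged change (adjusted p under 0.05, mean of at least 2 CPM, same sign on both days, no predicted genes), the 3 lowest p-values within each list, up to 8 genes per direction in the test between days, and 9 chosen genes (Cdkn1a, Aqp5, Gli1, Aldh3a1, Lcn2, Nfkb2, Hsd11b1, Irf7 and Ifit3). A few genes that entered the fits and counts are not reported here by name. Other genes past the threshold were named after their values were seen. Promoters are RefSeq windows of build GRCm38.p6 and transcripts are GENCODE M21; 40 of the 52 genes had a promoter window.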

Additional observations from a re-analysis of the deposited data

Results flagged for a closer look

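For 20 genes the difference between IR_iEV and IR glands was not the same on both days, by a direct test of the day 30 difference minus the day 4 difference (edgeR, adjusted p under 0.05). All 20 were lower on day 30 relative to day 4. The interferon-induced genes among them were Ifi206 (-3.11 on the log2 scale), Oas3 (-2.80), Oas2 (-2.64), Ifit3 (-2.60), Rtp4 (-2.30), Cmpk2 (-1.99), Ifit1 (-1.92), Irf7 (-1.83), Gbp3 (-1.82), Bst2 (-1.28) and Ifitm3 (-1.03). Complement genes were Cfb (-1.82), C1qa (-1.04) and C1qb (-0.98), and the macrophage lectin gene Siglec1 had -1.49. The remaining genes were the proteoglycan gene Sdc3 (-1.32), the secreted matrix protein gene Ccdc80 (-1.37), Hsd11b1 (-1.51), Nfkb2 (-1.12) and Slc39a14 (-0.64). Only Nfkb2, Hsd11b1 and Slc39a14 also passed in the average, and the other 17 did not. With the sublingual and adipose levels as covariates 8 of the 20 still passed, and in the fit that left out the sublingual-rich libraries 2 did. On day 4 that fit sets 1 IR_iEV_4d library against 1 IR_4d library, so its losses are no measure of how stable the difference between days is.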

How the results depend on the processing

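The averaged comparison called 52 genes. DESeq2 called 281 (83 higher and 198 lower), the fit without the sublingual-rich libraries 133, and the additive model 10; leaving out each library in turn gave 5 to 132. The other alternatives gave 47 to 75. The difference between days (20 genes) gave 119 with DESeq2, 8 with the tissue covariates, 7 without the sublingual-rich libraries, and 9 to 29 with a library left out. Day 4 alone (5 genes) gave 32 with DESeq2, 2 with a mean of at least 5 CPM, 0 with limma-voom (1072 at an unadjusted p under 0.05), 0 in edgeR with the tissue covariates (728), and 0 to 7 with a library left out. Day 30 alone (128 genes) gave 408 with DESeq2, 73 with the tissue covariates, 317 without the sublingual-rich libraries, and 9 to 192 with a library left out. The cause of these shifts was not tested. With 1 library left out, its group is assumed to vary like the others. The same holds without the sublingual-rich libraries, where day 4 is 1 library against 1.

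The replicate numbers are shared between groups, and no clear pairing by number was seen: 11 of 30 same-number pairs had a correlation of deviations above 0.1 (-0.58 to 0.52), and 4 of 15 libraries correlated best with their own number. Markers of neighbouring tissue also differed between libraries of a group, so this check cannot exclude a pairing. With the replicate block 47 genes passed in the average (42 of the 52), 20 between days, 3 on day 4 and 83 on day 30.

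For single genes of the averaged comparison, 1249 of the repeated values kept direction and side of the threshold, 431 no longer passed, 52 newly passed, and 11 changed sign, all in 3 genes near 0 that did not pass. With a library left out Gli1 ran from -0.41 to 0.064 (above 0 without IR_iEV_4d replicate 2 and, at 0.044, without IR_4d replicate 3), Derl2 from -0.021 to 0.038 (below 0 in 7 of 12) and P4hb from -0.026 (without IR_iEV_30d replicate 3) to 0.044. Derl2 was at -0.00028 with the tissue covariates. For the 20 genes that differed between days, read for single genes after the data had been seen, 351 kept both, 83 no longer passed and 0 changed sign. Upper quartile scaling moved the median of all genes to 0.03, and DESeq2 size factors left it at 0.00. No 2 libraries of a group were near-identical (lowest chi-square per degree of freedom 11.8). The groups scattered unequally: IR_30d pairs had 11.8 to 16.2 and pairs of the other groups 18.7 to 126. The fit nevertheless shares 1 estimate of the spread over all groups. Depth limits genes near 1 CPM such as Gli1 and Aldh3a1.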

Other observations

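Parotid markers (7 tested of 12 listed) all lay above 0 in the averaged comparison, with a median of 0.95, and 0 passed in edgeR (1 at an unadjusted p under 0.05). The median was 0.16 with the sublingual and adipose levels as covariates (4 above 0) and -0.21 without the sublingual-rich libraries (9 tested, 3 above 0), a fit with 1 library against 1 on day 4. The mean level of the 9 measured parotid markers was 4.29, 4.42 and 5.68 log2 CPM in IR_iEV_4d glands, against 5.48, 1.28 and 3.52 log2 CPM in IR_4d glands. On day 30 it was 1.16, 4.19 and 0.63 log2 CPM in IR_iEV_30d glands, against 1.09, 3.14 and 1.17 log2 CPM in IR_30d glands. Erythrocyte markers (8 tested) had a median of -0.36 made of 0.43 on day 4 and -1.39 on day 30 (-0.03 for the average without the sublingual-rich libraries). Genes of the cell cycle (32 tested) had a median of 0.04, made of 0.42 on day 4 and -0.40 on day 30, and 0 passed in edgeR (1 at an unadjusted p under 0.05). The cell cycle median was -0.08 with the tissue covariates and -0.39 without the sublingual-rich libraries, with 30 of 32 below 0. Immediate early and wound response genes (29 tested) had a median of -0.14 with -0.35 on day 4 and 0.05 on day 30 (-0.39 for the average without the sublingual-rich libraries); their mean level was 4.71 log2 CPM in IR_4d replicate 3, against 3.2 and 3.3 in the other IR_4d libraries.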
